A study of Mus musculus with 149 samples.

Results

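The data compared the lungs of naive BALB/c mice 6 h after a challenge with buffer alone, labelled 0.1% MSA, with those of naive mice 6 h after saline. The comparison used 14 of the expression arrays of a study of TSLP challenge, whose other groups hold 135 more: 6 buffer arrays (animals 2 to 7) and 8 saline arrays (animals 1 to 8), chosen by their labels. TSLP (thymic stromal lymphopoietin) is an epithelial cytokine linked to allergic airway inflammation, and the study gave saline, buffer alone or 150, 500 or 1500 ng TSLP to naive or OVA-sensitized (ovalbumin) mice, with lungs taken at 6 or 24 h. Each array held RNA from the lung sample of 1 animal, and no mouse in either group had been sensitized or had received TSLP. The groups set beside this pair were OVA-sensitized mice given buffer (8 arrays) or saline (8) at 6 h, naive mice given buffer (7) or saline (8) at 24 h, OVA-sensitized mice at 24 h given buffer (8) or saline (7), and naive mice given each TSLP dose at 6 h (8 each). The route of the challenge, the sex and age of the mice and the makeup of the buffer beyond its label were not stated in the labels or the design text. The design text gives 8 animals for each combination, and the other buffer animals of this group were not analysed here.

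A carrier group shows the lung's state after the fluid without the cytokine. Airway epithelium and resident macrophages sense inhaled or aspirated material within hours: they release the chemokines CXCL1, CXCL2 and CXCL3, which draw neutrophils through the receptor CXCR2, and acute phase proteins such as serum amyloid A and lipocalin follow. Whole lung RNA mixes airway, alveolar, vascular and immune cells, so fewer cells of a type and less RNA per cell cannot be told apart.

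With all arrays, the lungs of mice given buffer had more mRNA of the neutrophil chemokines Cxcl1, Cxcl2 and Cxcl3, of the acute phase proteins Saa3 and Lcn2 and of the cyclooxygenase Ptgs2, and type 2 inflammation genes did not pass. The transcription factor Klf2 and the coactivator Crtc2 rose, and the phosphatidylserine synthase Ptdss1 and the mitochondrial factor Coa4 fell, in each of 8 fits that drew the spread from the whole study, though not in the 14 arrays alone (adjusted p of at least 0.155). The chemokine rises, by contrast, did not pass once buffer animals 4 and 6 were left out, and many of the larger rises did not once saline animals 4, 5 and 6 were. The Ptdss1 fall rested on a single probe set, as its others gave -0.06 and 0.03 and did not pass. Its difference was -0.23 without buffer animals 2 and 5.

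The values are deposited RMA log2 levels, a scale on which a difference of 1 is a doubling. Of 13494 genes, 2014 (14.9%) passed an adjusted p of 0.05 in limma's test with Benjamini-Hochberg adjustment: 1092 (8.09%) were higher and 922 (6.83%) lower after buffer. Most differences were small: 22 of the rises and 1 of the falls exceeded 2-fold. This fit took each gene's spread from all arrays of the study; the 14 arrays alone passed 0 genes at the same threshold, with 2268 genes at an unadjusted p under 0.05 and a lowest adjusted p of 0.155. The median SD of a gene was 0.184 among the saline arrays and 0.188 among the buffer arrays, against a residual SD of 0.16 over all arrays.

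The labelled tissue was checked against lung markers: the mean log2 level of 8 alveolar type 2 cell genes, such as surfactant proteins, lay between 13.59 and 13.70 in every array of both groups. Buffer animals 4 and 6 stood apart from the other arrays through genes of squamous epithelium, such as that of the gullet, and of skeletal muscle, and saline animal 6 stood apart through muscle genes and RNA labelling. The arrays of saline animals 4, 5 and 6 were also the 3 lowest saline arrays for 382 of the 1092 rises (35%), against 937 of all 13494 genes (6.94%), and the 3 highest for 210 of the 922 falls (22.8%), against 886 of all genes (6.57%). Without buffer animals 4 and 6 the count was 1221 genes (9.05%), with 755 higher (5.6%) and 466 lower (3.45%), and without saline animal 6 as well it was 602 (4.46%), with 328 higher (2.43%) and 274 lower. Without saline animals 4, 5 and 6 it was 121 (0.897%; 57 higher, 64 lower), of which 119 were among the 2014. Those 3 animals were singled out from the values of the genes that rose, so leaving them out lowers the rises by construction. Each result below is therefore given with and without these arrays where they change it.

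**Figure D1:**
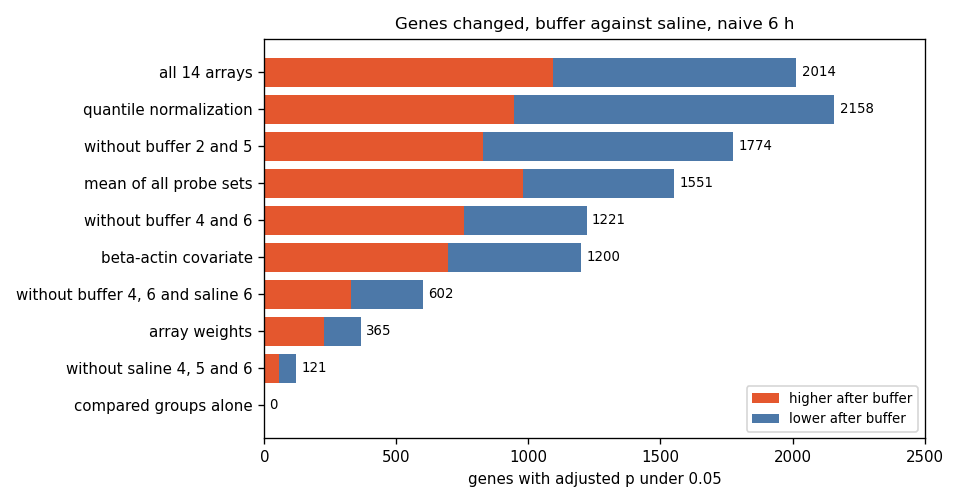
Number of genes past an adjusted p of 0.05 (x axis) under 10 ways of fitting the naive 6 h comparison (y axis), split into genes higher (red) and lower (blue) after buffer. The count runs from 2158 with quantile normalization and 2014 with all 14 arrays down to 121 without saline animals 4, 5 and 6 and 0 with the compared groups alone.

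The plot of counts by fit shows that the number of genes called depends on which arrays give the spread and which animals stand for saline. A total of 32 genes rose and 36 fell in each of 8 fits: all arrays, without buffer animals 4 and 6, without these and saline animal 6, a beta-actin covariate with and without buffer animals 4 and 6, without buffer animals 2 and 5, without saline animals 4, 5 and 6, and array weights. None of these passed in the 14 arrays alone.

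Klf2, a flow-responsive transcription factor of endothelium and quiescent lymphocytes, was one of the 32 rises. Its level was between 10.14 and 10.81 after saline (median 10.41) and between 10.87 and 11.35 after buffer (median 10.99). The groups did not overlap: the lowest buffer array, animal 6, lay just above the highest saline array, which was also animal 6. The difference was 0.62 (SE 0.13, adjusted p = 0.000337) with all arrays, 0.61 (adjusted p = 0.00295) without buffer animals 4 and 6, and 0.61 (adjusted p = 0.0189) without saline animals 4, 5 and 6. In OVA-sensitized mice at 6 h Klf2 was 10.60 ± 0.15 after buffer (SD, n = 8) and 10.80 ± 0.14 after saline (SD, n = 8), and the naive effect exceeded the OVA effect by 0.82 (adjusted p = 0.00362). Over all genes, 353 (2.62%) passed this test of the difference between naive and OVA-sensitized mice, a count that 1 animal could move: it was 133 and 171 without buffer animals 2 and 5, 200 and 201 without saline animals 5 and 6, and 556 and 642 without saline animals 1 and 2. In naive mice at 24 h Klf2 was 10.63 ± 0.15 after buffer (SD, n = 7) and 10.59 ± 0.31 after saline (SD, n = 8), and the difference between the 2 times did not pass (0.58, adjusted p = 0.0832). Naive mice given TSLP at 6 h had 10.42 ± 0.27, 10.81 ± 0.18 and 10.45 ± 0.23 (SD, n = 8 each) at 150, 500 and 1500 ng, closer to the saline mean of 10.45 than to the buffer mean of 11.08 at the lowest and highest dose.

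Other rises that passed in all 8 fits are a mixed group. Lypd6, a membrane-anchored protein that modulates Wnt signalling, was between 4.91 and 6.37 after saline (median 5.87) and between 6.36 and 6.99 after buffer (median 6.76). The groups met only at animal 3, the lowest buffer array and the highest saline array. Lypd6 rose by 0.95 (SE 0.14, adjusted p = 7.62e-07), which was more than in OVA-sensitized mice by 0.68 (adjusted p = 0.0307) and more than at 24 h by 0.83 (adjusted p = 0.0231). Over all genes, 45 (0.333%) passed the test of the difference between 6 and 24 h. This count was 0, 1, 6, 18 and 24 without saline animal 4, buffer animal 2, buffer animal 5, saline animal 5 and saline animal 6, and 83, 94, 161, 197, 217, 239 and 307 without buffer animal 6, saline animal 1, buffer animal 7, saline animal 8, buffer animal 3, saline animal 3 and saline animal 2, each left out alone.

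Crtc2, a coactivator of CREB-dependent transcription, was between 8.83 and 9.55 after saline (median 9.32) and between 9.57 and 10.002 after buffer (median 9.61), with no overlap. It rose by 0.42 (SE 0.07, adjusted p = 7.72e-06), its second probe set gave 0.43, and without saline animals 4, 5 and 6 the difference was 0.24 (adjusted p = 0.0473). Clk4, a kinase that phosphorylates splicing factors, was between 10.99 and 11.39 after saline (median 11.23) and between 11.42 and 11.71 after buffer (median 11.57). Its groups did not overlap either: it rose by 0.39 (SE 0.07, adjusted p = 3.75e-05), and a second probe set gave 0.56. Both genes differed more at 6 h than at 24 h, by 0.45 for Crtc2 (adjusted p = 0.0202) and by 0.42 for Clk4 (adjusted p = 0.0229). For both, the naive TSLP groups at 6 h lay at the buffer level: Crtc2 was 9.72, 9.63 and 9.67, and Clk4 was 11.54, 11.64 and 11.55, at 150, 500 and 1500 ng.

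Pkdcc, a secreted tyrosine kinase, was between 8.06 and 8.56 after saline (median 8.23) and between 8.58 and 9.16 after buffer (median 8.68), and rose by 0.51 (SE 0.08, adjusted p = 2.03e-05). Its second probe set gave -0.19 and did not pass, so the gene rests on 1 probe set. Irx1, a homeobox transcription factor active in lung development, was named after its values were seen. It was between 9.43 and 9.96 after saline (median 9.81) and between 9.996 and 10.77 after buffer (median 10.37), and rose by 0.66 (SE 0.10, adjusted p = 7.72e-06). Both genes rose more in naive than in OVA-sensitized mice, by 0.64 for Pkdcc (adjusted p = 0.000488) and by 0.57 for Irx1 (adjusted p = 0.0143), and neither overlapped between the groups.

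**Figure D2:**
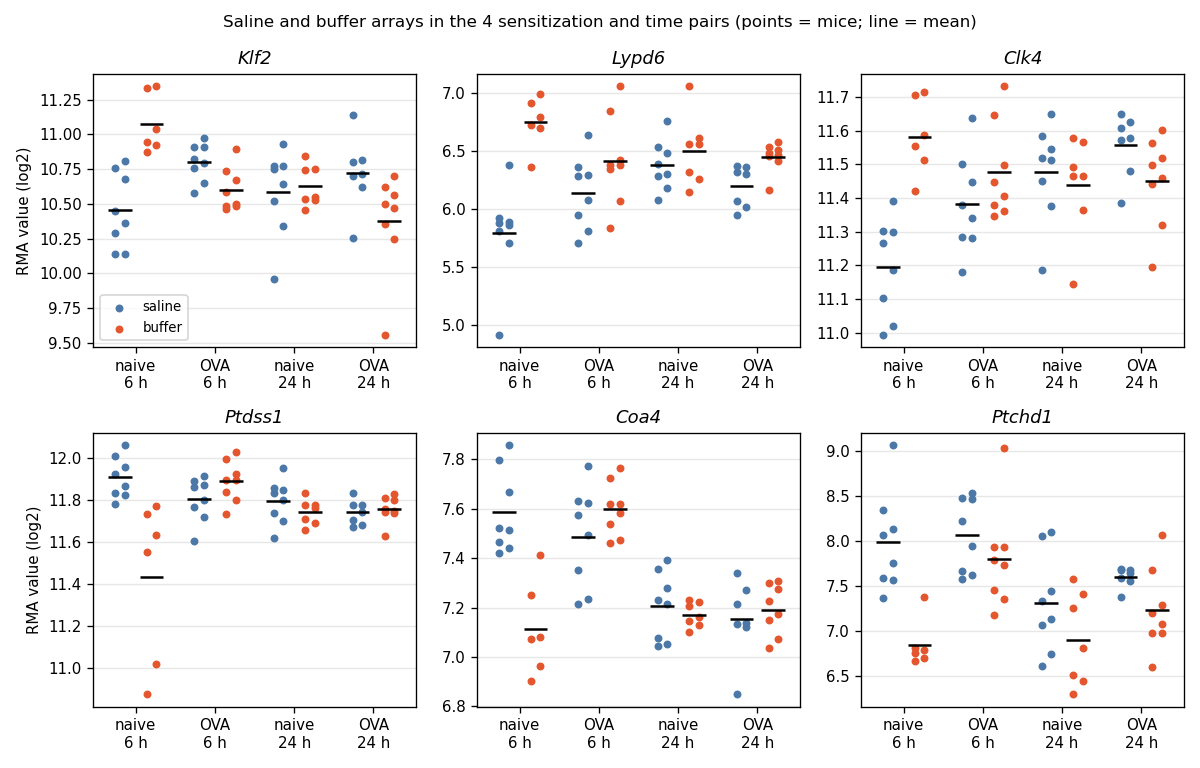
RMA log2 level (y axis) of 6 genes in single mice given saline (blue) or buffer (red), for naive and OVA-sensitized mice at 6 and 24 h (x axis); points are mice and black lines are means. In naive mice at 6 h the buffer mean lies 0.62 above saline for Klf2 and -0.47 from it for Coa4; the same differences in OVA-sensitized mice at 6 h are -0.20 and 0.11, and in naive mice at 24 h 0.04 and -0.03.

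The plot of the 4 pairs shows where each of these genes stood in the rest of the design. Over all genes, 48 (0.356%) passed the test of buffer against saline in OVA-sensitized mice at 6 h, 1 (0.00741%) in naive mice at 24 h and 119 (0.882%) in OVA-sensitized mice at 24 h. The larger count at 6 h in naive mice is to be read with the dependence on arrays given above.

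Among the falls in all 8 fits was Coa4, a mitochondrial protein tied to cytochrome oxidase assembly. Its level was between 7.42 and 7.86 after saline (median 7.52) and between 6.90 and 7.41 after buffer (median 7.08), with no overlap. It fell by 0.47 (SE 0.07, adjusted p = 2.19e-06), and the effect was 0.58 lower than in OVA-sensitized mice (adjusted p = 0.000124) and 0.44 lower than at 24 h (adjusted p = 0.0229). The naive TSLP groups at 6 h, at 7.15, 7.07 and 7.23, lay near the buffer mean of 7.11, as did both naive 24 h groups (7.17 after buffer, 7.21 after saline).

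Ptdss1, which makes phosphatidylserine, was between 11.78 and 12.06 after saline (median 11.90) and between 10.87 and 11.77 after buffer (median 11.59). The groups did not overlap, but buffer animals 2 and 5, at 10.87 and 11.02, were far below the other 4 buffer arrays. Ptdss1 fell by 0.48 (SE 0.06, adjusted p = 4.56e-08), and by 0.23 (adjusted p = 0.00356) without buffer animals 2 and 5. Its 2 other probe sets gave -0.06 and 0.03, and neither passed. Bms1, a factor of ribosome assembly, fell by 0.47 (SE 0.07, adjusted p = 5.11e-06) with the same 2 arrays lowest (10.84 and 11.06), and its other probe set gave 0.17 and did not pass, but rose by 0.26 (adjusted p = 0.0203) without buffer animals 4 and 6. Ptchd1, a patched-domain membrane protein, was between 7.37 and 9.06 after saline (median 7.91) and between 6.66 and 7.37 after buffer (median 6.77). It fell by 1.14 (SE 0.21, adjusted p = 7.02e-05), the one fall over 2-fold with all arrays, with the groups meeting only at buffer animal 3 and saline animal 3, and its second probe set gave -0.28 and did not pass.

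Zfp622, a zinc finger protein of ribosome assembly, fell by 0.29 (SE 0.04, adjusted p = 1.64e-06). Buffer animals 2 and 5 were again lowest, at 12.55 and 12.50 against 12.98 to 13.17 after saline. A second of its 4 probe sets fell by 0.23 with all arrays, but did not pass without buffer animals 4 and 6 (adjusted p = 0.167). The other 2 gave -0.10 and 0.03 and did not pass. S1pr3, a receptor for sphingosine 1-phosphate, and Mmrn2, a matrix protein of endothelium, were named after their values were seen. S1pr3 was between 12.73 and 12.97 after saline (median 12.82) and between 12.23 and 12.70 after buffer (median 12.44), and fell by 0.37 (SE 0.06, adjusted p = 2.77e-05). Mmrn2 was between 11.89 and 12.30 after saline (median 12.09) and between 11.58 and 11.87 after buffer (median 11.69), and fell by 0.38 (SE 0.08, adjusted p = 0.000797). Neither gene overlapped between the groups. S1pr3 has 3 probe sets and Mmrn2 has 4, and the values of those not used are not given here. The probe sets used for Mmrn2, Crtc2, Ptchd1 and Zfp622 are of a kind that can match more than 1 transcript (names ending in _x_at). The second Zfp622 probe set is of this kind too. The probe sets used for Pkdcc, Ptdss1 and Bms1 (names ending in _s_at) and, below, for Hoxa4 (_x_at) and Fermt3 (_s_at) can also match more than 1 transcript. In all, every buffer array lay above every saline array for 47 genes (0.348%) and below for 34 (0.252%), of which 36 and 29 passed both with all arrays and without buffer animals 4 and 6.

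Hoxa4, a positional homeobox gene, and Fermt3, an integrin activator of blood cells, were also lowest in buffer animals 2 and 5. Hoxa4 was between 8.57 and 9.58 after saline (median 8.82) and was 7.44 and 6.96 in those 2 arrays, against 8.28 to 8.60 in the other 4. It fell by 0.88 (SE 0.13, adjusted p = 7.62e-07) and by 0.47 (adjusted p = 0.00725) without the 2 arrays, and its other probe set gave -0.05. With the spread of this pair of groups alone, the SE of the Hoxa4 fall was 0.24 (adjusted p = 0.16). Fermt3 was between 11.64 and 12.37 after saline (median 12.06) and was 10.51 and 10.02 in the 2 arrays, against 11.72 to 11.87 in the other 4. It fell by 0.76 (SE 0.13, adjusted p = 3.93e-05); without the 2 arrays its difference was -0.26 (adjusted p = 0.129), and its 3 other probe sets gave values between -0.03 and 0.17 that did not pass. Snrnp40, a component of the spliceosome, had the same 2 arrays lowest (8.99 and 8.70): it fell by 0.65 (adjusted p = 7.8e-05), its difference without them was -0.26 (adjusted p = 0.109), and its other probe set rose by 0.25. Buffer animals 2 and 5 were the 2 lowest buffer arrays in 184 of the 922 falls (20%), against 8.49% of all genes. Buffer animals 4 and 6 were the 2 lowest in more of them, 285 (30.9%), against 19.8% of all genes. Without animals 2 and 5 the comparison passed 1774 genes, with 828 higher and 946 lower, so the number of falls did not drop. The array medians of buffer animals 2 and 5, at 9.13 and 9.16, were the highest of the study. Their part in these falls was not tested.

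Support from a second probe set was limited in both directions. Of the 1092 rises, 466 had another probe set: 116 of these (24.9%) had one that passed in the same direction, and 28 had one that passed only in the opposite direction. Of the 922 falls, 523 had another: 82 (15.7%) had one that passed in the same direction, and 53 had one that passed only in the opposite direction. Probe sets that can match more than 1 transcript (names ending in _x_at or _s_at) made up 24.6% of the falls and 7.23% of the rises, against 10.7% of all genes. Pde2a, a phosphodiesterase that degrades cyclic nucleotides, was a fall with a second probe set in the same direction. It fell by 0.75 (SE 0.17, adjusted p = 0.00118), and the second probe set gave -0.90. Both of these probe sets are of the kinds that can match more than 1 transcript. The third, which is not, gave -0.25 and did not pass. Without saline animals 4, 5 and 6 the Pde2a difference was -0.59 (adjusted p = 0.0982).

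Genes of neutrophil recruitment and acute inflammation were higher after buffer with all arrays. Of 20 measured members, 9 rose (45%, against 14.9% of all genes in either direction) and 0 fell; all 20 differences were above 0, with a median of 0.54 against 0.0006 over all genes. Without buffer animals 4 and 6, 3 rose (Saa3, Lcn2 and Ptgs2), or 15% against 9.05% of all genes, and the median was 0.60. Without saline animal 6 as well, where 4.46% of all genes passed, 0 rose and the median was 0.56. Without saline animals 4, 5 and 6, where 0.897% of all genes passed, 0 rose and the median was 0.37. The list's mean log2 level ran from 8.63 to 10.71 in saline arrays and from 9.28 to 10.64 in buffer arrays, so the highest saline array lay above every buffer array.

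Cxcl3, the chemokine with the largest difference, was between 3.88 and 10.58 after saline (median 5.86) and between 6.70 and 10.38 after buffer (median 8.88). The saline arrays spread widely: animals 5 to 8 lay at 3.88 to 4.54, animal 3 at 9.28 was inside the buffer range, and animal 2 at 10.58 was above every buffer array. Cxcl3 rose by 2.39 (SE 0.77, adjusted p = 0.0232), and its difference without buffer animals 4 and 6 was 2.32 (adjusted p = 0.0772). Cxcl2 was between 5.01 and 10.26 after saline (median 7.07) and between 7.37 and 10.44 after buffer (median 9.24), and rose by 1.80 (SE 0.58, adjusted p = 0.024). Cxcl1 was 8.48 ± 1.41 after saline (SD, n = 8) and 9.86 ± 1.08 after buffer (SD, n = 6), and rose by 1.38 (SE 0.42, adjusted p = 0.017). The saline and buffer ranges of both overlapped. Neither passed without buffer animals 4 and 6, at 1.62 for Cxcl2 (adjusted p = 0.111) and 1.25 for Cxcl1 (adjusted p = 0.0836). Single animals also decided the calls: Cxcl3 did not pass without any 1 of saline animals 5 to 8 and buffer animals 3 to 5 (adjusted p up to 0.0735), nor Cxcl2 without any 1 of saline animals 5, 7 and 8 and buffer animals 3 and 4 (adjusted p up to 0.08).

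The 3 chemokine genes lie close together on mouse chromosome 5, and their promoters are shown because the 3 moved together and each holds a match to the NF-kB consensus, a motif looked for after these values were seen. The windows run from 250 bases before to 50 bases after each start site, from RefSeq on build GRCm38.p6, plus strand, and capitals mark the match:
Cxcl1 (chr5:90890995-90891294): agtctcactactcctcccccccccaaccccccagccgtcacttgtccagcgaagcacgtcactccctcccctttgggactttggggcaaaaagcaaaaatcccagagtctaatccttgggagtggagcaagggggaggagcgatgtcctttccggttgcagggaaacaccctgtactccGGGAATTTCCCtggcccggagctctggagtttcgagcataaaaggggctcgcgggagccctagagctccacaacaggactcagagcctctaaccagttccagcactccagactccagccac
Cxcl2 (chr5:90903649-90903948): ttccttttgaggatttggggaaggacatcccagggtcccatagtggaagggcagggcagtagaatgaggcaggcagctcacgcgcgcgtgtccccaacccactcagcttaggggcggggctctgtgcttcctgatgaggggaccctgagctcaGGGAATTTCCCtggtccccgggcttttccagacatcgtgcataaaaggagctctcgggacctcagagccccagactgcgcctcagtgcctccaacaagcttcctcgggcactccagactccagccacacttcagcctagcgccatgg
Cxcl3 (chr5:90785851-90786150): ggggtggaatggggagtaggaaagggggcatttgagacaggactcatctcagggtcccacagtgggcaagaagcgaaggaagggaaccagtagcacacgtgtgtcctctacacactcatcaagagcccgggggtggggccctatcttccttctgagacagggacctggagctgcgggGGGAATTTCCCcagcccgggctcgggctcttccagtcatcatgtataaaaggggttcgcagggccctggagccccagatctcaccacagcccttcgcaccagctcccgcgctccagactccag
The same run stands in all 3 and holds overlapping matches, which lie 71 to 61 bases before the start site in Cxcl1, 97 to 87 in Cxcl2 and 73 to 63 in Cxcl3. A match to this consensus on either strand was found in 8.46% of 32851 promoter windows of this length. A match is a description of these letters only.

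Saa3, an acute phase protein made in the lung, was between 10.87 and 13.74 after saline (median 12.01) and between 12.23 and 13.68 after buffer (median 12.98). Saline animal 2 was the highest of all 14 arrays. Saa3 rose by 0.90 (SE 0.30, adjusted p = 0.0273), and by 1.02 (adjusted p = 0.0378) without buffer animals 4 and 6. Lcn2, which sequesters bacterial iron carriers, was between 12.74 and 13.95 after saline (median 13.21) and between 13.46 and 13.91 after buffer (median 13.63), and rose by 0.41 (SE 0.12, adjusted p = 0.012). Ptgs2, the inducible cyclooxygenase, was between 8.66 and 9.58 after saline (median 8.95) and between 8.91 and 9.99 after buffer (median 9.76). Apart from saline animal 2 and buffer animal 7 its groups did not overlap: Ptgs2 rose by 0.66 (SE 0.17, adjusted p = 0.00499), and by 0.59 (adjusted p = 0.0426) without buffer animals 4 and 6. Ptgs2 rose more in naive than in OVA-sensitized mice, by 0.89 (adjusted p = 0.0236), which did not pass without buffer animals 4 and 6 (adjusted p = 0.0503). With 1 animal left out at a time, Ptgs2 passed every time, Lcn2 did not without saline animal 5 (adjusted p = 0.0556), and Saa3 did not without any 1 of saline animals 4, 5 and 7 and buffer animals 3, 4 and 5 (adjusted p up to 0.0925). Without saline animals 4, 5 and 6 none of the 3 passed: Saa3 was at 0.74 (adjusted p = 0.26), Lcn2 at 0.30 (adjusted p = 0.264) and Ptgs2 at 0.62 (adjusted p = 0.0925).

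**Figure D3:**
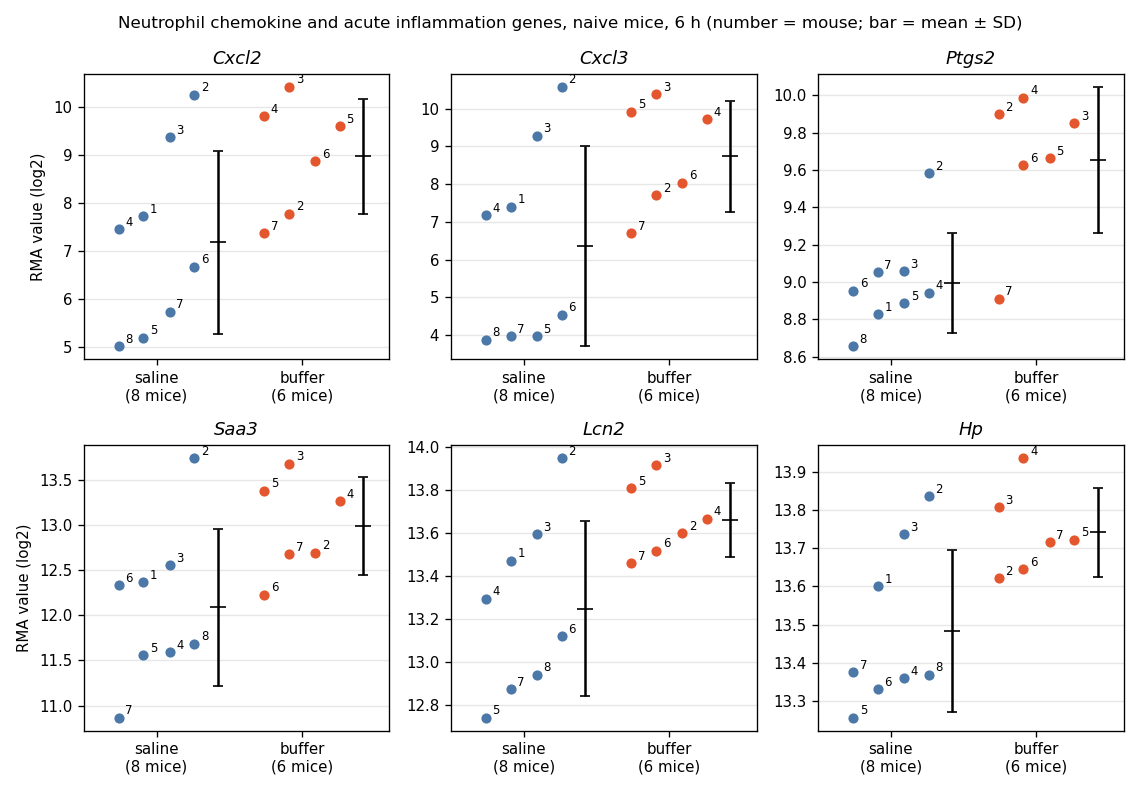
RMA log2 level (y axis) of 6 genes of neutrophil recruitment and acute inflammation in single naive mice at 6 h after saline (blue, 8 mice) or buffer (red, 6 mice); numbers name the animals and bars give the mean ± SD. Saline animal 2 lies within or above the buffer arrays in all 6 panels, while saline animals 5 to 8 lie below every buffer array for Cxcl2, Cxcl3, Lcn2 and Hp.

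The plot of the acute inflammation genes shows the spread that the saline arrays brought to this result. The other rises of the list were Hp, which binds free haemoglobin (0.26, adjusted p = 0.00837), the endothelial adhesion molecule Vcam1 (0.49, adjusted p = 0.014) and the cytokine Tnf (0.62, adjusted p = 0.038). None of these 3 passed without buffer animals 4 and 6, the nearest being Hp at 0.23 (adjusted p = 0.0525). Orm1, an acute phase plasma protein outside the list, rose by 1.55 (SE 0.47, adjusted p = 0.0162), and was at 1.41 (adjusted p = 0.0825) without them. The 11 measured markers of neutrophils themselves held 0 changed genes, and their mean log2 level ran from 9.18 to 10.28 after saline and from 9.11 to 10.24 after buffer. Of 15 NF-kB feedback genes, Tnfaip3 (0.42, adjusted p = 0.0429) and Birc3 (0.29, adjusted p = 0.0447) rose (13.3%, against 14.9% of all genes). Without buffer animals 4 and 6 neither passed, at 0.40 (adjusted p = 0.123) and 0.33 (adjusted p = 0.0589). Nfkb2, an NF-kB subunit, was the 1 that then rose (0.43, adjusted p = 0.0354), or 6.67% of the list against 9.05% of all genes. Without saline animals 4, 5 and 6 the list held 0 changed genes, where 0.897% of all genes passed. Leaving out 1 animal ended the call in 8 of 14 cases for Tnfaip3 and in 10 for Birc3. In naive mice given TSLP at 6 h, Cxcl3 was 9.71, 9.26 and 9.39 and Saa3 was 13.12, 12.998 and 12.97 at the 3 doses, at or above the buffer means of 8.74 and 12.99 except for Saa3 at 1500 ng.

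Genes of type 2 inflammation, the response tied to TSLP in airways, held 0 changed members of 17 (median 0.02), with and without buffer animals 4 and 6. The shares of all genes called were 14.9% and 9.05%. The 7 chemokines for monocytes and eosinophils and the 17 interferon response genes held 0 as well with all arrays; without buffer animals 4 and 6, Stat2 rose among the latter (0.36, adjusted p = 0.0426), where saline animal 6 was far below the others at 7.94. The 12 measured genes of cell division also held 0.

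Of 16 glucocorticoid responsive genes, Cebpd, Errfi1, Lcn2 and Mt2 rose (25%, against 14.9% of all genes called), and the first 3 of these passed without buffer animals 4 and 6 (18.8%, against 9.05%). Without saline animals 4, 5 and 6 the list held 0 changed genes, in a fit that passed only 0.897% of all genes. Cebpd, a transcription factor of acute responses, was between 10.48 and 11.04 after saline (median 10.80) and between 10.55 and 11.75 after buffer (median 11.41), where animal 6 was the lowest. It rose by 0.56 (SE 0.14, adjusted p = 0.00251) with all arrays and by 0.69 (adjusted p = 0.00115) without buffer animals 4 and 6, and both its probe sets passed. Errfi1, a feedback inhibitor of the EGF receptor, was between 11.59 and 12.40 after saline (median 12.19) and between 12.19 and 12.81 after buffer (median 12.69), and rose by 0.48 (SE 0.12, adjusted p = 0.00248). Without those 3 saline animals Cebpd was at 0.44 (adjusted p = 0.136) and Errfi1 at 0.35 (adjusted p = 0.158).

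Of 16 circadian clock genes 1 rose (6.25%, against 14.9% of all genes), Per1, a repressor of the clock that also responds to glucocorticoids. It was between 8.66 and 10.14 after saline (median 9.40) and between 9.83 and 10.49 after buffer (median 10.37). It rose by 0.80 (SE 0.22, adjusted p = 0.00758), by 0.86 (adjusted p = 0.0173) without buffer animals 4 and 6, and was at 0.55 (adjusted p = 0.253) without saline animals 4, 5 and 6. Per1 was 10.18, 10.01 and 10.60 in the naive TSLP groups at 6 h, and 8.49 after buffer and 8.39 after saline at 24 h. The hour of day of the challenge was not stated in the labels. Of 18 immediate early genes, Klf2, Klf6 (0.49, adjusted p = 0.00163) and Ier3 (0.32, adjusted p = 0.0282) rose (16.7%, near the 14.9% of all genes), and Klf2 alone of them passed without buffer animals 4 and 6.

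Protein folding and antioxidant genes moved singly. Of 15 genes of folding in the endoplasmic reticulum, Hyou1 and Herpud1 (0.26, adjusted p = 0.0161) rose, and Xbp1, the transcription factor of the unfolded protein response, fell (-0.22, adjusted p = 0.0412), while a second Xbp1 probe set rose by 0.37 (20% of the list called, against 14.9% of all genes). Of 11 heat shock chaperones Hspe1 rose (0.31, adjusted p = 0.0333; 9.09%), and of 10 NRF2 targets the glutathione reductase Gsr rose (0.38, adjusted p = 0.0384; 10%), both shares below that of all genes. None of these passed without saline animals 4, 5 and 6, nor did Herpud1 (adjusted p = 0.0737) and Gsr (adjusted p = 0.374) without buffer animals 4 and 6.

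Many of the larger rises came from genes that were low in saline animals 4, 5 and 6. Rabac1, a protein of vesicle transport, was 9.54, 9.21 and 9.35 in these 3 arrays and 10.74 to 11.82 in the other 5 saline arrays, against 11.18 to 12.43 after buffer (median 11.85). It rose by 1.20 (SE 0.22, adjusted p = 9.99e-05), and was at 0.45 (adjusted p = 0.276) without the 3 arrays. C1qa, a chain of the complement starter C1q made by macrophages, was 7.56, 7.07 and 7.90 in the 3 arrays and 8.41 to 9.85 in the others, against 9.36 to 10.29 after buffer (median 9.78). It rose by 1.25 (SE 0.28, adjusted p = 0.0011), and was at 0.64 (adjusted p = 0.282) without the 3 arrays. Its partner chains in the same complex did not pass: C1qc differed by 0.09 (adjusted p = 0.742), and C1qb was 13.17 in both groups.

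**Figure D4:**
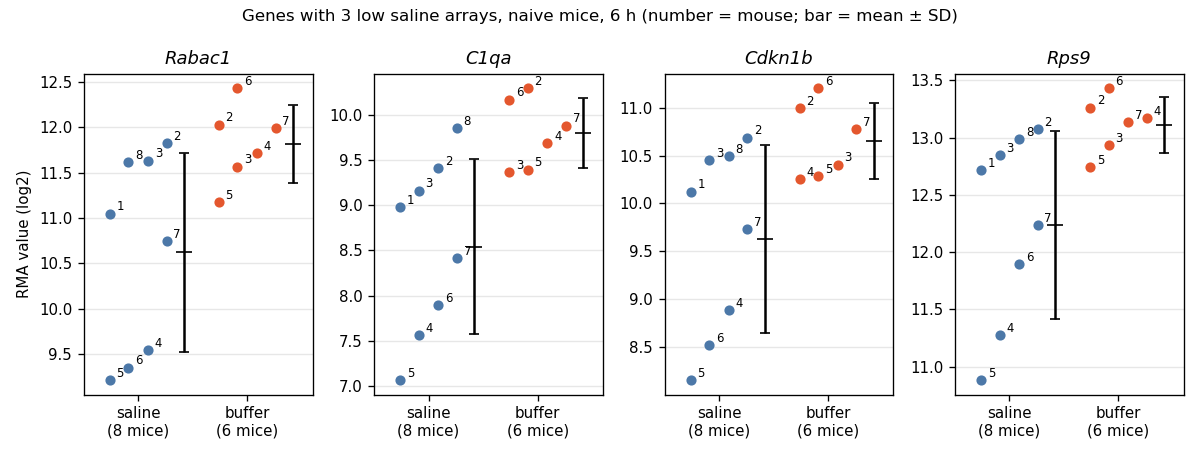
RMA log2 level (y axis) of 4 genes in single naive mice at 6 h after saline (blue, 8 mice) or buffer (red, 6 mice); numbers name the animals and bars give the mean ± SD. In each panel saline animals 4, 5 and 6 are the 3 lowest of the 14 arrays, while the highest saline animals reach into the buffer range.

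The plot of genes with low saline arrays shows the same 3 animals at the bottom for genes of unrelated function. Cdkn1b, an inhibitor of the cell cycle, was 8.88, 8.16 and 8.52 in them and rose by 1.02 (SE 0.23, adjusted p = 0.000818), and was at 0.36 (adjusted p = 0.442) without them. Rps9, a ribosomal protein, rose by 0.87 (SE 0.18, adjusted p = 0.000321) and was at 0.34 (adjusted p = 0.316) without them, and its second probe set gave 0.02. R3hdm4 rose by 1.08 with both of its probe sets passing and was at 0.39 (adjusted p = 0.381) without them. Hyou1, a chaperone of the endoplasmic reticulum, rose by 1.06, while its second probe set gave 0.13. A wide saline spread of this kind was also present in OVA-sensitized mice: Rabac1 was 10.67 ± 0.93 after saline (SD, n = 8) and 11.06 ± 0.28 after buffer (SD, n = 8) at 6 h, against 12.44 ± 0.26 (SD, n = 8) and 12.53 ± 0.13 (SD, n = 7) in naive mice at 24 h. In naive mice given TSLP at 6 h it was 12.40, 12.47 and 12.25.

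RNA integrity and labelling were read from beta-actin, as the log2 level of its 3′ control probe set less that of its 5′ one. This was 2.14 ± 0.31 after buffer (SD, n = 6) and 2.42 ± 0.51 after saline (SD, n = 8), a difference of -0.28 with an exact two-sided permutation p of 0.274. Saline animals 5 and 6 had the highest values, 2.92 and 3.42. The same measure on the pyruvate carboxylase control, chosen after the data were seen, had the opposite sign: 2.68 ± 0.16 after buffer (SD, n = 6) and 2.49 ± 0.14 after saline (SD, n = 8), a difference of 0.19 with an exact two-sided permutation p of 0.0326 (0.0652 adjusted over both measures). A fit with the beta-actin measure as a covariate passed 1200 genes (8.89%); its part in the rises was not tested otherwise. This measure also differed among the groups set beside this pair. It ran from 1.08 to 2.27 in naive mice given TSLP at 6 h and from 1.01 to 1.91 in naive mice given buffer or saline at 24 h. In OVA-sensitized mice given buffer or saline at 6 h it ran from 2.18 to 2.96, and in this pair from 1.57 to 3.42. Its part in levels set against those groups, such as those of Rabac1 and Coa4, was not tested.

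Squamous and muscle genes held the largest rises with all arrays, Lce3f and Myh8, and these rested on buffer animals 4 and 6. Lce3f, a protein of the cornified envelope, was 11.41 and 13.93 in these animals, against 4.65 to 4.97 in the other 4 buffer arrays and 4.37 to 4.90 after saline. It rose by 2.87 (SE 0.94, adjusted p = 0.0259), and without the 2 arrays its difference was 0.26 (adjusted p = 0.92); without animal 4 or 6 alone it was 2.08 (adjusted p = 0.152) or 1.57 (adjusted p = 0.285). Krt13, a keratin of moist squamous epithelium, was 10.4 and 13.5 in them and at most 6.06 in the 143 arrays of the study without such keratins. At 6 h it was also 13.9 in OVA-sensitized buffer animal 7 and 13.8 in naive 150 ng TSLP animal 5. In naive buffer animal 8 at 24 h it was 13.9, and in OVA-sensitized 1500 ng TSLP animal 7 at 6 h 13.6. All but the last belong to groups set beside this pair, and the means given for those groups include them. Of 15 measured gullet epithelium genes 4 rose with all arrays (26.7%, against 14.9% of all genes), with a median of 1.19. Without buffer animals 4 and 6, 0 rose (median -0.05). The list's mean log2 level was 5.99 to 6.41 after saline and 6.01 to 6.20 in the other 4 buffer arrays, with the highest value, 11.43, in one of the 2.

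**Figure D5:**
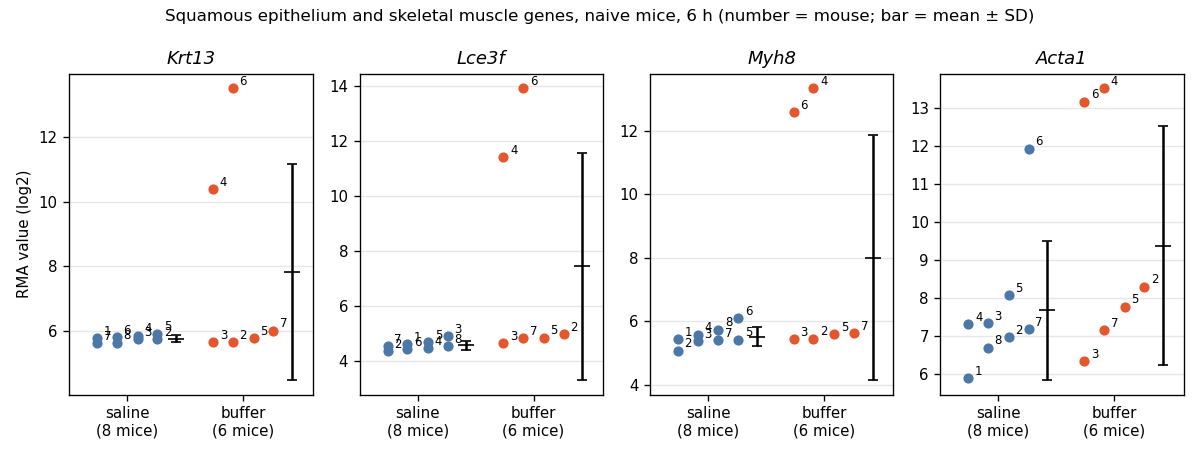
RMA log2 level (y axis) of 2 squamous epithelium genes (Krt13, Lce3f) and 2 skeletal muscle genes (Myh8, Acta1) in single naive mice at 6 h after saline (blue, 8 mice) or buffer (red, 6 mice); numbers name the animals and bars give the mean ± SD. Buffer animals 4 and 6 stand above all others in every panel, and saline animal 6 is high for Acta1 at 11.9.

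The plot of squamous and muscle genes shows that the 2 buffer animals carried both kinds of gene. Myh8, a myosin heavy chain of skeletal muscle, was 13.34 and 12.58 in them and between 5.07 and 6.09 in the other arrays of both groups; it rose by 2.49 (SE 0.79, adjusted p = 0.0218), and its difference without them was 0.01 (adjusted p = 0.998). Acta1, skeletal alpha-actin, was 13.5 and 13.2 in them, and 11.9 in saline animal 6. Of 13 skeletal muscle genes 1 rose with all arrays (7.69%, against 14.9% of all genes; median 1.15). Without the 2 arrays 0 rose (median -0.64), where saline animal 6 holds up the saline mean, and without that array too the median was -0.04.

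Few members of each lung cell type list were called, though some shares lay above the 14.9% of all genes. Tagln, of smooth muscle, rose by 0.51 (SE 0.11, adjusted p = 0.000501) and by 0.40 (adjusted p = 0.0232) without buffer animals 4 and 6. It was 1 of 2 rises among 9 smooth muscle genes with all arrays (22.2%). Foxj1, the master regulator of motile cilia, rose by 0.72 (SE 0.19, adjusted p = 0.00539) and by 0.76 (adjusted p = 0.0151) without them, while the 10 measured ciliated cell genes had a median of -0.01. Tppp3 was the other rise of that list with all arrays (0.28, adjusted p = 0.034; 20% of the list called). Without buffer animals 4 and 6 Foxj1 was the list's 1 rise, and Ccdc39 (-0.35, adjusted p = 0.0174) and Rfx3 (-0.39, adjusted p = 0.0323) fell (30%, against 9.05% of all genes). Foxj1 after saline ran from 6.79 to 8.18, with animals 4, 5 and 6 the lowest, against 8.01 to 8.32 after buffer. Marco, a scavenger receptor of alveolar macrophages, was between 6.54 and 7.72 after saline (median 7.21) and between 7.28 and 8.01 after buffer (median 7.79). Marco rose by 0.51 (SE 0.18, adjusted p = 0.0398), while Siglecf, a lectin of the same cells, fell by 0.51 (SE 0.18, adjusted p = 0.0411) and its difference did not pass without buffer animals 4 and 6 (adjusted p = 0.102). Gp9, a platelet receptor chain, rose by 0.72 (SE 0.16, adjusted p = 0.000913) and by 0.73 (adjusted p = 0.00501) without buffer animals 4 and 6. Without saline animals 4, 5 and 6, none of these passed: the adjusted p was 0.201 for Tagln, 0.335 for Foxj1, 0.114 for Marco, 0.36 for Siglecf and 0.0862 for Gp9. Leaving out 1 animal ended the call of Marco in 7 of 14 cases and that of Siglecf in 8. The alveolar type 2, goblet, T, B, natural killer, eosinophil, and basophil and mast cell lists held 0 changed genes with all arrays, and without buffer animals 4 and 6 Gata2 rose among the basophil and mast cell genes (0.39, adjusted p = 0.024).

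Ribosomal and mitochondrial genes moved in both directions or singly. Of 20 ribosomal protein genes 3 rose, Rps9, Rps14 (0.53, adjusted p = 0.00062) and Rps10 (0.19, adjusted p = 0.00116), with a median of 0.01 for the list (15% called, against 14.9% of all genes). Without saline animals 4, 5 and 6, where 0.897% of all genes passed, the list held 0 changed genes, with Rps14 at 0.19 (adjusted p = 0.38) and Rps10 at 0.10 (adjusted p = 0.24). Of 67 respiratory chain genes 7 rose and 6 fell (19.4%, against 14.9% of all genes), with a median of -0.02. Without saline animals 4, 5 and 6, 0 rose and 1 fell (1.49%, against 0.897% of all genes), Cox6a1 (-0.21, adjusted p = 0.0484). Ndufb11, a complex I subunit, rose by 0.54 (SE 0.10, adjusted p = 6.91e-05), more than in OVA-sensitized mice by 0.51 (adjusted p = 0.0223). Ndufb11 was at 0.34 (adjusted p = 0.0787) without those 3 saline animals, and its difference from OVA-sensitized mice did not pass without buffer animals 4 and 6 (adjusted p = 0.0922). Cox6a1, a subunit of cytochrome oxidase, fell by 0.19 (SE 0.05, adjusted p = 0.00438), with buffer animals 2 and 5 lowest at 12.88 and 12.65 against 13.36 to 13.47 after saline. The other 4 buffer arrays lay at 13.40 to 13.57, and without animals 2 and 5 the difference was 0.05 (adjusted p = 0.382).

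Genes of antigen presentation also split, though on single probe sets. H2-Aa, an MHC class II chain, rose by 0.47 (SE 0.12, adjusted p = 0.00402), with saline animals 4, 5 and 6 lowest at 11.87, 11.72 and 11.98, and was at 0.18 (adjusted p = 0.512) without them; its other 2 probe sets gave -0.16 and -0.05. Its partner chain H2-Ab1 fell by 0.18 (adjusted p = 0.0238), while the other 2 H2-Ab1 probe sets gave 0.09 and 0.20 and did not pass. Of 10 measured dendritic cell and MHC class II genes 2 rose and 1 fell (30%, against 14.9% of all genes). Among 14 endothelial genes Pecam1, a junction protein, rose (0.39, adjusted p = 0.0319; 7.14%, against 14.9% of all genes). Among 9 club cell genes the secretory protein Scgb1a1 fell (-0.09, adjusted p = 0.0165) and Hp rose (22.2%), and among 34 collagens Col17a1 rose (0.68, adjusted p = 0.0215; 2.94%). Without buffer animals 4 and 6, H2-Ab1, Pecam1, Scgb1a1 and Col17a1 did not pass, at adjusted p of 0.228, 0.101, 0.0506 and 0.452, while Calcrl, a peptide receptor of endothelium, fell (-0.24, adjusted p = 0.0216).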

How the data were processed

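Per the labels' protocols, lung RNA was extracted with the mirVana kit (RIN over 6), and 100 ng was labelled with the 3' IVT Express kit for Affymetrix arrays. The authors deposited log2 values made with RMA, per the submitters' processing notes, with the version not given in the sources used here. Array medians ran from 8.97 to 9.16, and array number sets the precision. The highest medians of the study were those of naive 6 h buffer animals 5 (9.16) and 2 (9.13), and the next was 9.09. Of 26166 probe sets, 22892 name 1 gene, 260 several and 3014 none; of a gene's probe sets (5715 of 13494 genes have more than 1), the one brightest on average across the series was used.

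limma 3.58.1 (R 4.3.3) fitted 1 mean per group over 149 arrays and 20 groups, with eBayes and Benjamini-Hochberg adjustment over all genes at 0.05, two-sided. It fitted the difference between naive and OVA-sensitized mice and that between 6 and 24 h as contrasts. The fit was also run on simulated data, with independent arrays and the same spread of a gene in all groups. That run could not test a wider spread or unusual arrays in this pair. Animals of different groups share numbers but are different mice, so numbers did not pair them (correlations of deviations between -0.20 and 0.15).

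Named genes were the 10 largest named rises and falls with all arrays and without buffer animals 4 and 6, up to 4 members of each list by p, all type 2 genes, and the 5 smallest p of each difference; Tnf, Cxcl1, Krt13, Acta1, Irx1, S1pr3, Mmrn2, C1qb and C1qc were named after their values were seen. The members and lists were chosen with earlier results of these data known, so no list is independent support. Alternatives changed the probe set rule, dim filter, normalization, prior, weights, block, arrays and a beta-actin covariate. Leaving out saline animal 6, saline animals 4, 5 and 6 or buffer animals 2 and 5, weights without buffer animals 4 and 6, and the pyruvate carboxylase measure were chosen after seeing the data.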

Additional observations from a re-analysis of the deposited data

Results flagged for a closer look

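Of 212 groups of arrays of the genes named, 24 held 1 array far from the rest, where chance flags about 1 in 20 groups; the genes were partly chosen for large differences, so the count is not to be read against that rate. Saline animal 6 was far from the other saline arrays for Hoxa4 (9.58), Fbln7 (9.11), Snrnp40 (10.86), Rab38 (11.04) and Rps25 (11.3), all above, and for Lypd6 (4.91), Stat2 (7.94) and Tppp3 (11.98), all below. Saline animal 2 was above the others for Ptgs2 (9.58), Birc3 (11.38), Mt2 (12.96), Ccl11 (9.51), Ccl22 (10.48) and Clca1 (7.8), which are genes of inflammation or of metal binding. Saline animal 1 stood apart for Pkdcc (8.56) and Rfx3 (8.19), and saline animal 5 for Cox6a1 (13.36). Among the buffer arrays, animal 4 stood apart for Crtc2 (10), Cx3cr1 (7.59) and Gata2 (11.91), animal 3 for Ptchd1 (7.37) and Errfi1 (12.19), animal 6 for Foxj1 (8.01) and animal 7 for Ptgs2 (8.91).

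The buffer effect of 24 of 210 gene and contrast pairs differed by limma's test of the difference, adjusted over all genes. Over all genes, 2.62% differed between naive and OVA-sensitized mice and 0.333% between 6 h and 24 h. The genes named include those with the smallest p of each difference, so part of the 24 was chosen on the tested value. Of these, the naive effect lay above the OVA effect at 6 h for H2ac19 (1.09, adjusted p = 0.0432), Ptgs2 (0.89), Klf2 (0.82), Lypd6 (0.68), Pkdcc (0.64), Ndufb11 (0.51) and Rps10 (0.21, adjusted p = 0.0303). It lay below for Hoxa4 (-0.96, adjusted p = 0.000488), Sbk1 (-0.92, adjusted p = 0.0219), Pde2a (-0.78, adjusted p = 0.0478), Snrnp40 (-0.68, adjusted p = 0.0101), Fermt3 (-0.62, adjusted p = 0.0404), Coa4 (-0.58), Ptdss1 (-0.56, adjusted p = 1.07e-05), Mettl8 (-0.49, adjusted p = 0.000492), Bms1 (-0.45, adjusted p = 0.00533) and Zfp622 (-0.31, adjusted p = 0.00068). The naive effect at 6 h lay above that at 24 h for Lypd6 (0.83), Crtc2 (0.45) and Clk4 (0.42), and below it for Bms1 (-0.47, adjusted p = 0.0229), Coa4 (-0.44), Ptdss1 (-0.43, adjusted p = 0.0202) and Zfp622 (-0.28, adjusted p = 0.0229). Without buffer animals 4 and 6, the difference from OVA-sensitized mice no longer passed for Pde2a (adjusted p = 0.0679), H2ac19 (0.209), Lypd6 (0.0599), Ptgs2 (0.0503) and Ndufb11 (0.0922).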

How the results depend on the processing

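The count of genes changed, 2014 with all arrays, was 365 with array weights, 318 with weights and without buffer animals 4 and 6, 1236 without all 6 arrays of the study with gullet keratins, 1221 without buffer animals 4 and 6, 602 without these and saline animal 6, 1200 with the beta-actin covariate, 1064 with it and without buffer animals 4 and 6, 121 without saline animals 4, 5 and 6, and 0 with the compared groups alone, with or without buffer animals 4 and 6 (2268 and 1590 at an unadjusted p under 0.05). Leaving out 1 animal gave 1344 (saline animal 4) to 2609 (saline animal 2). Quantile normalization passed 2158, of which 43.8% rose against 54.2% in the fit as reported. The difference between naive and OVA-sensitized mice passed 353 genes; it passed 156 with the mean of all probe sets, 34 with weights, 1 with the compared groups alone and 0 with these and without buffer animals 4 and 6, 102 with beta-actin, 33 without buffer animals 2 and 5, 18 without saline animals 4, 5 and 6, and 133 (without buffer animal 2) to 642 (without saline animal 2) without 1 animal. The difference between 6 and 24 h passed 45; it passed 21 with the mean of all probe sets, 117 without the dimmest 40% of genes, 9 with weights, 116 without buffer animals 4 and 6, 77 without all 6 gullet arrays, 139 with beta-actin, 179 with beta-actin and without buffer animals 4 and 6, 0 with the compared groups alone (with or without buffer animals 4 and 6), without buffer animals 2 and 5 and without saline animals 4, 5 and 6, and 0 (without saline animal 4) to 307 (without saline animal 2) without 1 animal. With the animal number as a replicate block, the 3 counts were 1995, 329 and 47. The beta-actin difference of -0.28 was -0.35 to -0.14 without 1 animal, and the pyruvate carboxylase difference had the other sign (0.187, exact permutation p = 0.0326, 0.0652 adjusted over both). Single genes turned sign for Myh8 (-0.048, beta-actin without buffer animals 4 and 6), Xbp1 (0.067) and H2-Ab1 (0.036) with the mean of all probe sets, and Cox6a1 (0.046) without buffer animals 2 and 5. Of 3114 gene and setting pairs, 2357 kept direction and side of the threshold, 704 lost it and 49 gained it; the cause was not tested. The planned Gapdh measure was not run. Labels do not say that arrays were run in separate batches, and with 6 and 8 arrays of whole lung small changes in rare cells may lie under the spread.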
